A study of Homo sapiens with 12 samples.

Results

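The mRNAs of the eIF4F complex and of its 4E-binding proteins were followed in polysome-associated RNA of 3 established triple-negative breast cancer (TNBC) cell lines. The 10 members were taken by gene symbol: EIF4E, EIF4A1, EIF4A2, EIF4G1, EIF4G2, EIF4G3, EIF4B, PDCD4, EIF4EBP1 and EIF4EBP2. They are 10 of 24559 gene symbols in the data, and all 10 were among the 16538 genes that passed the filter on low counts. The series asked how the level of TRMT112, an activating partner of several RNA and protein methyltransferases, changes the mRNAs that are loaded with ribosomes. There were 12 libraries, 2 in each of 6 groups. MDA-MB-231 and SUM159 cells carried an empty vector control (EV) or a TRMT112 shRNA (KD). BT549 cells carried EV or a TRMT112 open reading frame (OE). In the study's methods the KD control is a non-silencing shRNA vector and the OE control is the empty expression plasmid. All groups were transfected and drug-selected, with puromycin for the shRNA lines and G418 for BT549. Before lysis the cells of every group were given cycloheximide, which holds ribosomes in place on mRNA. The medium differed between the lines (SUM159 cells also received insulin and hydrocortisone, and BT549 cells grew in RPMI medium), so cell line and medium cannot be told apart. Nothing in the labels says that the libraries of a group came from separate cultures, and p-values therefore measure only the spread between these libraries.

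Cap-dependent translation starts when eIF4F assembles on the cap of an mRNA. eIF4E binds the cap, eIF4G is the scaffold, and eIF4A is an RNA helicase that unwinds the leader of the mRNA and is helped by eIF4B. The 4E-BPs compete with eIF4G for eIF4E until mTORC1 phosphorylates them, and PDCD4 binds eIF4A and keeps it out of the complex. In breast cancer the complex is studied because mRNAs of growth and survival genes depend on it strongly.

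Each library held between 22954226 and 27434677 expected counts, and the members together took between 0.266% and 0.606% of them. TRMT112, the targeted gene, was checked first. It had 4147 and 3938 TMM-normalized counts (counts scaled between libraries by edgeR) in MDA-MB-231 EV and 1764 and 1682 in KD. In SUM159 it had 6332 and 6566 in EV and 3909 and 3699 in KD. In BT549 it had 3076 and 3087 in EV and 4286 and 4319 in OE. The groups of each line did not overlap and followed their labels. Of the receptors whose absence defines TNBC, PGR was at most 0.186 TPM (a level per length of transcript, scaled to the same sum in each library), ESR1 was not listed, and ERBB2 lay between 27.3 and 54.4 TPM. Transcripts undetected in BT549 are not listed for any line, so the missing entry says nothing of ESR1 in MDA-MB-231 and SUM159. KRT8 and KRT18, epithelial keratins, were between 207 and 559 TPM in MDA-MB-231 and SUM159 and at most 0.552 TPM in BT549. Of the other epithelial markers, EPCAM was at most 3.94 TPM, and CDH1 and KRT19 were highest in BT549 EV with 1.16 and 0.770 TPM. VIM, a mesenchymal filament, was between 597 and 1866 TPM. CDH2, the mesenchymal cadherin, was at 0.108 and 0.228 TPM in the MDA-MB-231 groups and between 19.6 and 32.2 TPM in the other lines, and FN1 lay between 7.72 and 147 TPM. Of the basal markers, EGFR lay between 8.50 and 29.7 TPM, KRT5 was not listed, and KRT14 was at 7.65 TPM in SUM159 EV and at most 0.0735 TPM in the other groups. The limit given for ESR1 holds for KRT5 too. PTPRC of leukocytes and PECAM1 of endothelium were at most 0.970 TPM. There were no libraries of total RNA, so the amount of an mRNA and its loading with ribosomes cannot be told apart, and the scaling between libraries hides any change common to all mRNAs.

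Per length of transcript, EIF4A1 was the most abundant member in 5 of the 6 groups. Its mean level was 3763 TPM in MDA-MB-231 EV, 3931 TPM in MDA-MB-231 KD, 1031 TPM in SUM159 EV, 1013 TPM in BT549 EV and 2210 TPM in BT549 OE. The exception was SUM159 KD, where EIF4A1 was at 489 TPM and EIF4G2 led with 856 TPM. In MDA-MB-231 EV the order after EIF4A1 was EIF4G2 (594 TPM), EIF4A2 (507 TPM), EIF4EBP1 (314 TPM), EIF4B (216 TPM), EIF4E (126 TPM), PDCD4 (61.8 TPM), EIF4G1 (54.7 TPM), EIF4G3 (16.0 TPM) and EIF4EBP2 (12.2 TPM). The helicase mRNA thus exceeded the next member 6.33 times there, whereas in SUM159 EV it exceeded the next 1.45 times. In SUM159 EV EIF4EBP1 stood after EIF4G2 with 520 TPM and EIF4G1 reached 142 TPM. In BT549 EV EIF4EBP1 stood second with 409 TPM, and PDCD4 was the lowest member with 12.9 TPM. EIF4EBP2 and EIF4G3 were under 30 TPM in every group. Neighbours in the order were separated in both libraries, with 2 exceptions: EIF4G1 (54.6 TPM) and PDCD4 (54.3 TPM) in MDA-MB-231 KD, and EIF4A2 (169 TPM) and EIF4E (168 TPM) in BT549 EV.

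**Figure D1:**
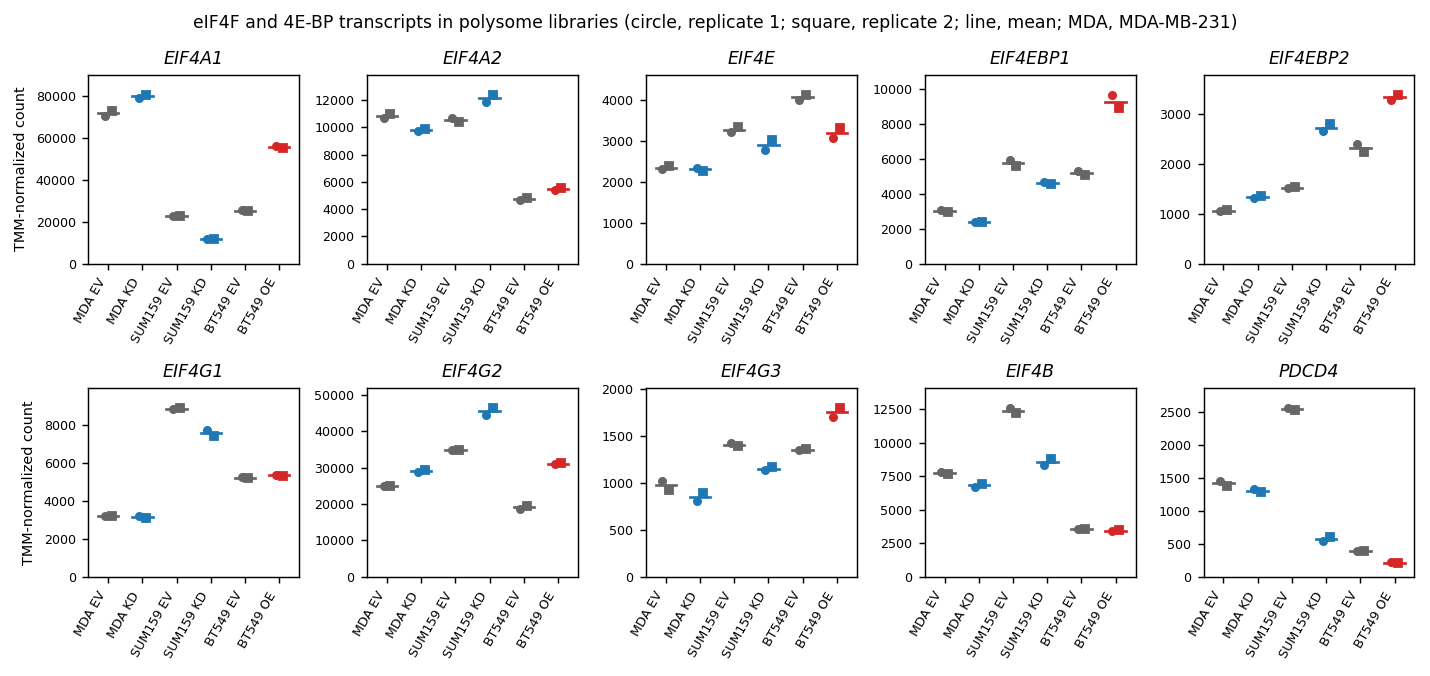
TMM-normalized counts of the 10 members (vertical axes, each from 0, not corrected for transcript length) in the 6 groups of polysome libraries. Circles and squares are the 2 libraries and lines their mean; EIF4A1 stood at 22740 and 22895 in SUM159 EV and at 11728 and 11872 in KD, and PDCD4 at 2564 and 2538 against 549 and 608.

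Of the 10 members, 3 were higher and 4 were lower in MDA-MB-231 KD than in EV at an adjusted p under 0.05 (edgeR's quasi-likelihood test, adjusted by Benjamini-Hochberg over 16538 genes). Of all genes tested, 21.2% were higher and 16.5% were lower in this comparison. No member that was called also moved by 0.5 or more on the log2 scale, while 10.2% of all genes did. In SUM159 KD 3 members were higher and 7 were lower, against 28.6% and 31.4% of all genes, and 4 of them passed the fold limit, against 34.9%. In BT549 OE 6 members were higher and 2 were lower, against 35.6% and 35.0% of all genes, and 5 passed the fold limit, against 50.8%. The median log2 fold change of the members was -0.07, -0.26 and 0.29 in MDA-MB-231 KD, SUM159 KD and BT549 OE, and that of all genes was 0.00, 0.00 and 0.02. Without regard to sign, the median log2 change was 0.17, 0.35 and 0.45 for the members and 0.23, 0.46 and 0.70 for all genes. In MDA-MB-231 56.2% of the genes called were higher, and 36.7% when libraries were scaled by their size only. Fitted as single leading transcripts, EIF4E (-0.27), EIF4G1 (-0.40) and EIF4G3 (-0.60) were no longer called in SUM159 KD, nor were EIF4B (-0.18) and EIF4G3 (-1.20) in MDA-MB-231 KD. That fit called fewer genes in general, 5523 of 16200 in SUM159 KD and 1781 of 16200 in MDA-MB-231 KD. The main fit called 9933 and 6240 of 16538 genes.

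**Figure D2:**
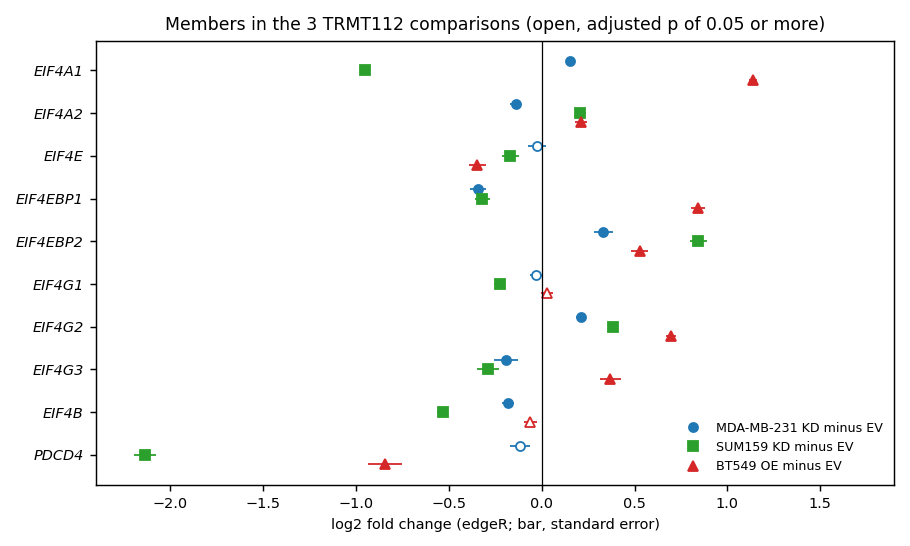
Log2 fold change of each member (horizontal axis) in MDA-MB-231 KD, SUM159 KD and BT549 OE, each against EV of the same line, with edgeR's standard error as bars and open symbols for an adjusted p of 0.05 or more. EIF4A1 lay at -0.95 in SUM159 KD and 1.14 in BT549 OE, and PDCD4 at -2.14 and -0.85.

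EIF4A1, the main eIF4A helicase, lies at chr17:7572824-7579006 (GRCh38, plus strand). It fell in SUM159 KD, from 22740 and 22895 normalized counts to 11728 and 11872. The KD level was 0.517 of the EV level (log2 fold change -0.95, SE 0.02, edgeR adjusted p = 1.4e-19). In BT549 it rose from 25533 and 25104 in EV to 56233 and 55191 in OE (log2 fold change 1.14, SE 0.02, edgeR adjusted p = 5.9e-22). In MDA-MB-231, where EV was already at 70697 and 72987, the KD libraries had 79279 and 80686 (log2 fold change 0.15, SE 0.02, edgeR adjusted p = 8.7e-06). The groups did not overlap in any line, and the direction in MDA-MB-231 KD was opposite to that in SUM159 KD. Read-through transcripts from the upstream gene SENP3 are listed separately as SENP3-EIF4A1 with at most 441 normalized counts, and adding them to EIF4A1 changed no call. How the counting divided reads shared with processed pseudogenes of EIF4A1 is not given in the sources used here.

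EIF4A2, the second eIF4A helicase, lies at chr3:186783205-186789897 (plus strand). Its coding sequence is 76.7% identical to that of EIF4A1, and the longest run of bases shared by their leading transcripts is 20 bases. It had 10648 and 10352 normalized counts in SUM159 EV and 11881 and 12386 in KD, and so rose where EIF4A1 fell (log2 fold change 0.21, SE 0.03, edgeR adjusted p = 2.4e-06). In BT549 it rose from 4636 and 4815 to 5390 and 5559 (0.21 on the log2 scale, SE 0.03, edgeR adjusted p = 6.2e-06). In MDA-MB-231 it fell from 10662 and 10949 to 9753 and 9861 (-0.14 on the log2 scale, SE 0.03, edgeR adjusted p = 0.00079). The MDA-MB-231 and BT549 changes rest on the sum over transcripts: for the leading EIF4A2 transcript alone they were 0.06 and -0.04, and neither was called.

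PDCD4, the inhibitor of eIF4A, lies at chr10:110871795-110900006 (plus strand). In SUM159 EV it had 2564 and 2538 normalized counts, and in KD it had 549 and 608. This was the largest change of any member in the TRMT112 comparisons, to 0.227 of EV (log2 fold change -2.14, SE 0.06, edgeR adjusted p = 3.8e-19). In BT549 it fell from 391 and 390 in EV to 219 and 215 in OE (log2 fold change -0.85, SE 0.09, edgeR adjusted p = 1.9e-08). PDCD4 thus fell both with TRMT112 knocked down in SUM159 and with TRMT112 overexpressed in BT549. In MDA-MB-231 it had 1462 and 1379 in EV and 1329 and 1291 in KD, which did not pass the test (-0.12 on the log2 scale, 95% interval -0.25 to 0.02, edgeR adjusted p = 0.099). With scaling by library size only the MDA-MB-231 value was -0.21 and was called. It was also called with the groups of that line fitted alone.

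EIF4B, the cofactor of the helicase, lies at chr12:53006282-53042215 (plus strand). It fell in both KD lines. In SUM159 it went from 12570 and 12191 to 8347 and 8759 normalized counts (log2 fold change -0.53, SE 0.03, edgeR adjusted p = 2.9e-13). In MDA-MB-231 it went from 7790 and 7664 to 6725 and 6904 (-0.18 on the log2 scale, SE 0.03, edgeR adjusted p = 5.9e-05). In BT549, where it was lowest, EV had 3592 and 3598 and OE had 3434 and 3456, without passing the test (-0.06 on the log2 scale, 95% interval -0.15 to 0.03, edgeR adjusted p = 0.13).

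The scaffolds differed from each other. EIF4G1 (chr3:184314495-184335358, plus strand), the main eIF4G, had 8850 and 8918 normalized counts in SUM159 EV and 7751 and 7449 in KD (log2 fold change -0.23, SE 0.03, edgeR adjusted p = 6.8e-07). It did not pass the test in MDA-MB-231 (3235 and 3227 in EV, 3206 and 3124 in KD, 95% interval of the log2 fold change -0.11 to 0.05), although it was called with scaling by library size only (-0.12, edgeR adjusted p = 0.0050). Its leading transcript alone was at -0.42 there, which was not called. It did not pass in BT549 either (5257 and 5231 in EV, 5402 and 5311 in OE, 95% interval -0.05 to 0.11). EIF4G2 (chr11:10797050-10808940, minus strand), also called DAP5, is a relative of eIF4G that lacks the part that binds eIF4E. It rose in all 3 lines. It went from 25050 and 25101 to 28710 and 29406 in MDA-MB-231 KD, from 34882 and 34760 to 44604 and 46409 in SUM159 KD, and from 18773 and 19544 to 30974 and 31189 in BT549 OE. Its log2 fold changes were 0.21, 0.39 and 0.70, each with SE 0.03 and edgeR adjusted p between 4.7e-17 and 5.4e-07.

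EIF4G3 (chr1:20806292-21177285, minus strand), a close paralog of EIF4G1, was the lowest scaffold. It had 1422 and 1396 normalized counts in SUM159 EV and 1135 and 1170 in KD (log2 fold change -0.29, SE 0.06, edgeR adjusted p = 0.00017). In BT549 it rose from 1346 and 1364 to 1705 and 1798 (0.37 on the log2 scale, SE 0.06, edgeR adjusted p = 5.1e-06). In MDA-MB-231 it had 1024 and 925 in EV and 808 and 897 in KD (-0.19 on the log2 scale, SE 0.06, edgeR adjusted p = 0.019). The MDA-MB-231 call was lost without EV replicate 1 (-0.12) and without KD replicate 1 (-0.12). EIF4G3 counts were spread over 11 transcripts that each held more than 5% in some library, and its leading transcript alone went the other way in BT549 (-0.72, not called).

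EIF4E, the cap-binding subunit, lies at chr4:98879276-98929133 (minus strand). It fell in BT549 OE, from 3991 and 4117 normalized counts to 3065 and 3310 (log2 fold change -0.35, SE 0.04, edgeR adjusted p = 2.7e-07). In SUM159 it had 3206 and 3320 in EV and 2777 and 3024 in KD (-0.17 on the log2 scale, SE 0.04, edgeR adjusted p = 0.0023), a call lost without KD replicate 1 (-0.11). In MDA-MB-231 it had 2313 and 2370 in EV and 2341 and 2260 in KD, which overlapped (95% interval of the log2 fold change -0.14 to 0.09, edgeR adjusted p = 0.73).

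EIF4EBP1 (chr8:38030534-38060365, plus strand) encodes 4E-BP1, the best known of the eIF4E inhibitors. It fell in both KD lines by a similar amount: from 3072 and 2960 to 2390 and 2370 in MDA-MB-231 and from 5888 and 5553 to 4635 and 4535 in SUM159. The log2 fold changes were -0.34 (SE 0.04, edgeR adjusted p = 1.5e-06) and -0.32 (SE 0.04, edgeR adjusted p = 2.4e-07). In BT549 it rose from 5260 and 5064 in EV to 9642 and 8871 in OE (0.84 on the log2 scale, SE 0.04, edgeR adjusted p = 3.2e-15). The groups of each line did not overlap. EIF4G3 had the same directions, but lost its MDA-MB-231 call as given above, whereas EIF4EBP1 kept all 3 calls whichever library was left out. Whether the KD and OE effects differ was not tested, and they come from different lines.

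EIF4EBP2 (chr10:70404145-70428618, plus strand) encodes 4E-BP2, which acts like 4E-BP1. It rose in all 3 lines. It went from 1050 and 1071 to 1318 and 1352 normalized counts in MDA-MB-231 KD, from 1508 and 1534 to 2648 and 2806 in SUM159 KD, and from 2396 and 2235 to 3289 and 3384 in BT549 OE. The log2 fold changes were 0.33 (SE 0.05, edgeR adjusted p = 1.8e-05), 0.84 (SE 0.05, edgeR adjusted p = 1.5e-13) and 0.53 (SE 0.04, edgeR adjusted p = 2.2e-10). The mRNAs of the 2 inhibitors therefore moved in opposite directions in both KD lines and together in BT549 OE.

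The effect of the KD was compared between MDA-MB-231 and SUM159 in the same model, as the MDA-MB-231 effect minus the SUM159 effect. The difference was above 0 for 4 members and below 0 for 3, against 27.7% and 23.2% of all genes. PDCD4 differed most (2.02 on the log2 scale, SE 0.08, edgeR adjusted p = 1.1e-15), followed by EIF4A1 (1.11, SE 0.03, edgeR adjusted p = 1.0e-17). EIF4B (0.35) fell less in MDA-MB-231, EIF4G1 (0.20) fell in SUM159 and did not pass in MDA-MB-231, and EIF4EBP2 (-0.51) and EIF4G2 (-0.17) rose less there. EIF4A2 (-0.35) fell in MDA-MB-231 and rose in SUM159, summed over its transcripts. For its leading transcript alone the difference was -0.37 and was not called (edgeR adjusted p = 0.11). The EIF4G2 difference was not called for its leading transcript alone either (edgeR adjusted p = 0.053). No difference was detected for EIF4EBP1 (-0.02, 95% interval -0.17 to 0.12), EIF4G3 (0.10, 95% interval -0.12 to 0.31) or EIF4E (0.14, 95% interval -0.02 to 0.30, edgeR adjusted p = 0.071). The remaining TRMT112 mRNA differed too: its own KD effect was 0.47 lower on the log2 scale in MDA-MB-231 than in SUM159 (difference -0.47, SE 0.06), and its part in these differences was not tested.

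The EV libraries were also compared between the lines. Without regard to sign, the members' median log2 difference was 0.61 between MDA-MB-231 and SUM159, 0.95 between BT549 and MDA-MB-231 and 0.68 between BT549 and SUM159, and that of all genes was 0.78, 0.99 and 0.96. Against SUM159 EV, MDA-MB-231 EV had 1 member higher and 8 lower, against 36.4% and 39.2% of all genes. The member that was higher was EIF4A1 (log2 difference 1.65, SE 0.02), and EIF4G1 was the lowest relative to SUM159 (-1.46, SE 0.03), followed by EIF4EBP1 (-0.92), PDCD4 (-0.84) and EIF4B (-0.68). EIF4A2 did not pass (0.04, 95% interval -0.03 to 0.12), although it was called in 5 other settings: with RLE size factors (0.10), library size only (0.14), DESeq2 (0.10), genes of at least 50 mean counts (0.07) and the 2 groups fitted alone (0.09). BT549 EV had 5 members higher and 5 lower than MDA-MB-231 EV, against 39.1% and 40.4% of all genes. PDCD4 (-1.86), EIF4A1 (-1.50), EIF4A2 (-1.19) and EIF4B (-1.10) were lower in BT549, and EIF4EBP2 (1.13), EIF4E (0.79) and EIF4EBP1 (0.78) were higher. Against SUM159 EV, BT549 EV had 3 members higher and 6 lower, against 37.7% and 40.7% of all genes. PDCD4 was at 0.153 of the SUM159 level (-2.71, SE 0.06), and EIF4B was at 0.290 of it (-1.78, SE 0.03). The comparisons between lines share their EV libraries. EIF4EBP1 (-0.15) and EIF4A1 (0.15) differed little between BT549 and SUM159. With RLE size factors EIF4EBP1 was at -0.07 and no longer called. With library size only, where the median of all genes was -0.27, EIF4A1 turned to -0.06.

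EIF4A2 had the largest share of transcripts annotated as targets of nonsense-mediated decay (NMD, the pathway that degrades mRNAs with an early stop codon) of any member in every group. The deposited table lists 27 EIF4A2 transcripts, 4 of which are annotated so. Their summed share of EIF4A2 counts came to 30.2% and 31.0% with EV in MDA-MB-231 and to 22.1% and 21.1% with KD. The SUM159 EV libraries had 29.3% and 26.4%, and their KD libraries had 14.6% and 15.0%. The BT549 EV libraries had 20.9% and 19.2%, and the OE libraries 26.4% and 20.6%. The KD libraries were below the EV libraries in both KD lines, and the BT549 groups overlapped. With 2 libraries against 2, an exact permutation test cannot give a two-sided p below 0.333. The share of each transcript is an estimate by the authors' counting from reads that several transcripts share, and its error is not given.

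**Figure D3:**
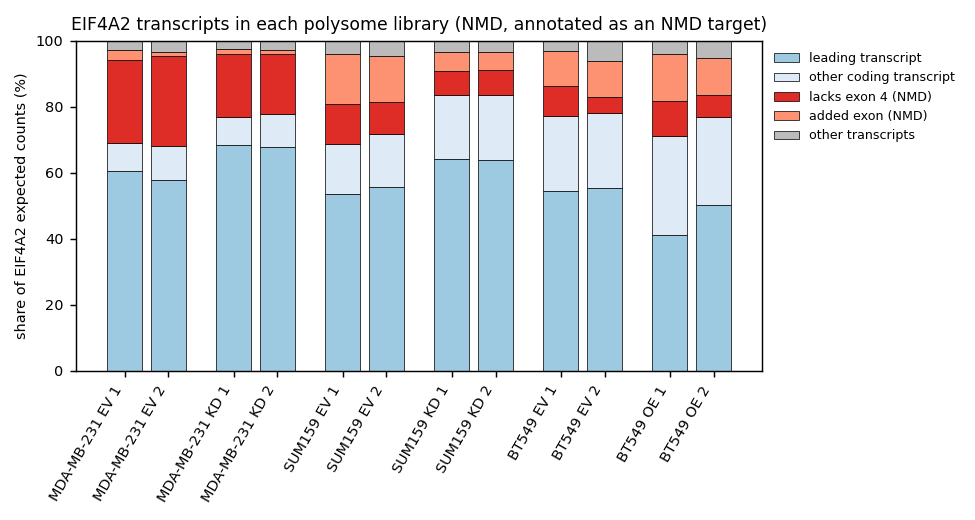
Share of EIF4A2 expected counts (vertical axis, percent) held by its 4 main transcripts and by the others in each of the 12 polysome libraries. The transcript that skips exon 4 and the one with an added exon, both annotated as NMD targets, together took less of each bar in the KD libraries than in the EV libraries of MDA-MB-231 and SUM159.

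The leading NMD transcript of the EV libraries differed between the KD lines. A transcript that lacks exon 4 of the leading transcript led in MDA-MB-231 with a mean of 26.2% in EV and 18.5% in KD. A transcript with an added exon of 107 bases led in SUM159 EV with 14.7% and had 5.68% in KD. All 4 NMD transcripts together had a mean of 27.8% in SUM159 EV. The added-exon transcript held 2.05% in MDA-MB-231 EV. In a fit over 64066 transcripts the added-exon transcript of EIF4A2 fell in SUM159 KD (log2 fold change -1.18, SE 0.25, edgeR adjusted p = 0.011), while the leading EIF4A2 transcript rose (0.43, SE 0.09, edgeR adjusted p = 0.0074). The exon-skipping transcript was at -0.65 in MDA-MB-231 KD (SE 0.24), which did not pass (edgeR adjusted p = 0.24). The bases that set these transcripts apart are shown because they place the early stops. Skipping exon 4, which has 140 bases and leaves a remainder of 2 when divided by 3, shifts the reading frame. The exon-skipping transcript then meets a stop codon in exon 5 after 96 codons, where the leading transcript has 407. The added exon carries a stop that ends the frame after 362 codons. The sequences below are from GRCh38, plus strand, and capitals mark the stop codons.
EIF4A2 exon 4, chr3:186784962-186785101: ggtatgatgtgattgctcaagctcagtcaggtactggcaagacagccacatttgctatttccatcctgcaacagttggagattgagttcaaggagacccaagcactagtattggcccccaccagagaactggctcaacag
EIF4A2 exon 5 up to the early stop, chr3:186785883-186785965: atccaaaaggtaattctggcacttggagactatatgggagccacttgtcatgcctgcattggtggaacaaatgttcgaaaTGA
Start of the added exon, chr3:186788310-186788339: gagtcgaTAGcagcagttggtgacgagatg

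The other members differed in how many transcripts carried their counts. EIF4EBP2 had 1 listed transcript, and the leading EIF4EBP1 transcript held at least 99.7% of that gene's counts in every library. Leading transcripts held at least 90.8% for EIF4G2, 83.9% for EIF4A1 and 71.7% for EIF4B. EIF4G1 was divided among 40 listed transcripts, and its leading transcript never held more than 29.8%. The retained-intron transcript EIF4G1-233, which is short, had a share of 0.962% and 1.22% in BT549 EV and of 11.1% and 7.14% in OE, and its count rose (log2 fold change 3.10, SE 0.53, edgeR adjusted p = 0.0018). EIF4G1 had 68.8 and 68.6 TPM in BT549 EV and 89.3 and 82.4 TPM in OE, which the per-length scale gives higher while the summed count did not pass the test.

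Ratios between members were taken within each library, as log2 of the ratio of normalized counts. Their levels mix transcript lengths, so the changes from EV are given. The ratio of EIF4EBP1 to EIF4E changed by -0.32 in MDA-MB-231 KD, -0.15 in SUM159 KD and 1.19 in BT549 OE. That of EIF4EBP2 to EIF4E changed by 0.36, 1.01 and 0.88. Both inhibitors of eIF4E were thus higher relative to it in BT549 OE, and EIF4EBP2 was higher in both KD lines. The lower EIF4EBP1 ratio was larger than the spread between libraries in MDA-MB-231 (SD 0.07). In SUM159 it was about as large as the spread (SD 0.14): its EV libraries stood at 0.88 and 0.74 and its KD libraries at 0.74 and 0.58, and the change was -0.07 without KD replicate 2, -0.08 without EV replicate 1, and -0.06 with leading transcripts only. The ratio of EIF4A2 to EIF4A1 changed by -0.29, 1.16 and -0.93, and its highest value was in SUM159 KD, where both libraries had slightly more EIF4A2 than EIF4A1 counts (0.02 and 0.06). The ratio of PDCD4 to EIF4A1 changed by -0.27, -1.19 and -1.98, and was lower than in EV in every line. The ratio of EIF4G2 to EIF4G1 changed by 0.24, 0.61 and 0.67. The changed and EV libraries did not overlap in any of these ratios, narrowly so for EIF4EBP1 to EIF4E in SUM159. The ratio of EIF4G3 to EIF4G1 overlapped in MDA-MB-231 (-0.16) and SUM159 (-0.06) and did not in BT549 (0.34). No ratio could reach a p under 0.333 in the exact permutation test.

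**Figure D4:**
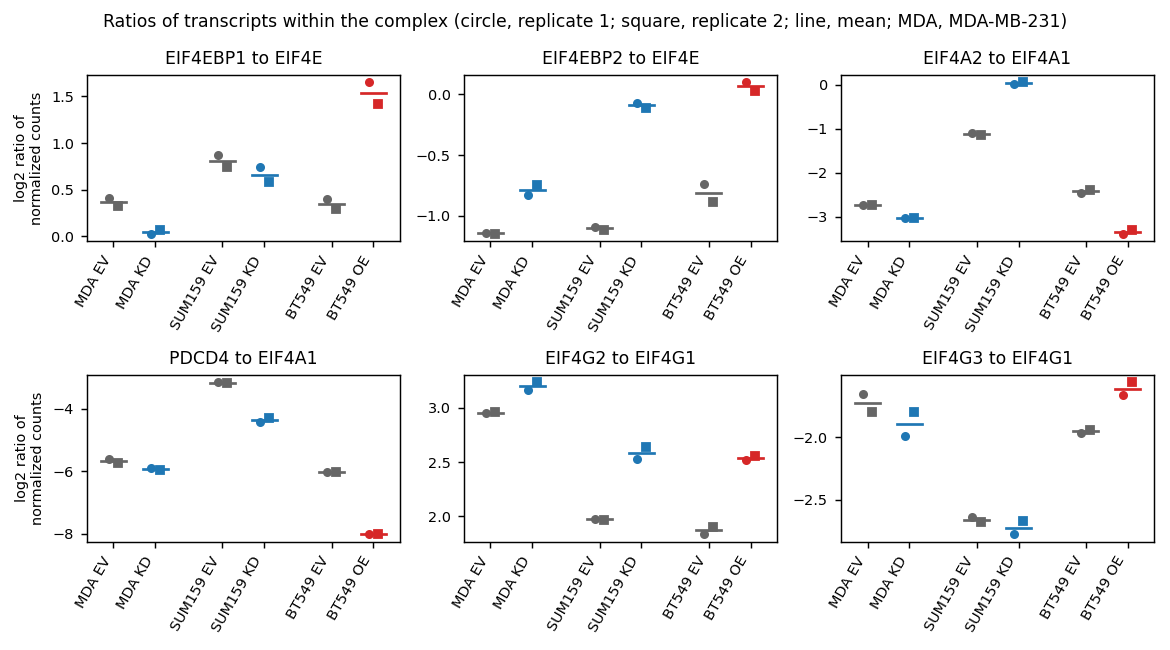
Log2 ratios of normalized counts between members (vertical axes) in the 12 polysome libraries; circles and squares are the 2 libraries of a group and lines their mean. The ratio of PDCD4 to EIF4A1 was lower than in EV by 0.27, 1.19 and 1.98 in MDA-MB-231 KD, SUM159 KD and BT549 OE.

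The starts of the members' genes were examined because mRNAs that begin with a C and a run of pyrimidines are a known class whose translation follows mTORC1. RefSeq start windows (GRCh38.p14) were found for 9 members, 13 windows in all. A C at the annotated start followed by at least 4 bases that are each C or T, read on the gene's strand, was present in 2 of the 13 windows, those of EIF4A2 and EIF4B, against 4.07% of 35116 windows of all genes. For 8 of the 9 members a window began within 10 bases of the start of the leading transcript. Both EIF4G3 windows lie at least 60389 bases from it, so they say nothing of that transcript. EIF4A1, whose start has 3 such bases, is shown for comparison. Each window has 15 bases before the start and 15 from it, and capitals mark the run of C and T that begins at the start.
EIF4A1, chr17:7572810-7572839: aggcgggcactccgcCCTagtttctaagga
EIF4A2, chr3:186783562-186783591: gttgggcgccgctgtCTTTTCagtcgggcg
EIF4B, chr12:53006441-53006470: ttgcctcatccgggtCTTTTgcgttctctt
Summed over transcripts, the 2 genes with the run moved apart in SUM159 KD, where EIF4A2 rose (0.21 on the log2 scale) and EIF4B fell (-0.53). In MDA-MB-231 KD both fell (-0.14 and -0.18), and in BT549 OE EIF4A2 rose (0.21) while EIF4B did not pass (-0.06). A match is only a description of the letters at an annotated start.

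Around the complex, 31 further genes of cap-dependent initiation were listed, and all 31 were tested. In MDA-MB-231 KD 8 were higher and 8 lower, against 21.2% and 16.5% of all genes. In SUM159 KD 9 were higher and 13 lower, against 28.6% and 31.4%, and in BT549 OE 15 and 10, against 35.6% and 35.0%. Their median log2 fold changes were -0.04, -0.11 and 0.11. Nothing particular to these genes is read from the counts, nor from those of their smaller groups, which are too few to set against the shares of all genes. Of the 15 genes of mTORC1 and the kinases that act on eIF4F, 3, 7 and 7 were higher and 4, 3 and 7 lower. DDIT4, an inhibitor of mTORC1 signalling, fell in all 3 comparisons, by 0.36 in MDA-MB-231 KD, 2.07 in SUM159 KD and 1.74 in BT549 OE on the log2 scale. It had 63996 and 65231 normalized counts in SUM159 EV and 15869 and 14954 in KD, and 17628 and 17637 in BT549 EV and 5322 and 5211 in OE. RHEB, the activator of mTORC1 (0.61), and AKT1S1, a subunit that restrains it (0.41), rose in SUM159 KD. MKNK2, a kinase of eIF4E, rose in SUM159 KD (0.34) and fell in MDA-MB-231 KD (-0.17). RPS6KA1, a kinase of eIF4B (0.46), and RPTOR (0.32), the latter the subunit of mTORC1 that recruits the 4E-BPs, rose in MDA-MB-231 KD. For RPS6KA1 the MDA-MB-231 KD effect minus the SUM159 KD effect was 0.80, more than its rise in MDA-MB-231. A comparison that is not named for one of the 31 genes may still hold a change of that gene. MLST8, another subunit of mTORC1, rose in BT549 OE (1.20), and RPS6KB1, the S6 kinase, fell (-1.34).

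Of the 5 genes of poly(A) binding, 2 were higher and 1 lower in MDA-MB-231 KD, 0 and 4 in SUM159 KD, and 4 and 0 in BT549 OE, beside the same shares of all genes (21.2% and 16.5%, 28.6% and 31.4%, 35.6% and 35.0%). PABPC1, which joins the poly(A) tail to eIF4G, had 10479 and 10535 normalized counts in MDA-MB-231 EV and 9073 and 8911 in KD, and 12693 and 12542 in SUM159 EV and 10571 and 10056 in KD. In BT549 it had 11342 and 11268 in EV and 19982 and 20515 in OE. Its log2 fold changes were -0.22, -0.29 and 0.84 (SE 0.03 each), and all passed the test. PAIP1, which stimulates translation through PABPC1, rose in MDA-MB-231 KD (0.26). Of the 6 other eIF4 family genes, 2 were higher and 2 lower in MDA-MB-231 KD, 2 and 2 in SUM159 KD, and 3 and 1 in BT549 OE. EIF4H, a cofactor of eIF4A like eIF4B, rose in MDA-MB-231 KD (0.21) and BT549 OE (0.60). In SUM159 EIF4H was also higher in KD, with 27477 and 28192 normalized counts in EV and 32771 and 32310 in KD. EIF4A3, the helicase of the exon junction complex, fell in SUM159 KD (-1.17) and BT549 OE (-1.19), and EIF4E2, a relative of EIF4E, rose in SUM159 KD (0.44). In MDA-MB-231 EIF4E2 was lower in KD, with 2711 and 2597 normalized counts in EV and 2373 and 2406 in KD. In BT549 it was higher in OE, with 2276 and 2217 in EV and 2826 and 2751 in OE. Of the 5 other cap binders and regulators, 1 was higher and 1 lower, 0 and 4, and 1 and 2 in the same comparisons. CYFIP1, an eIF4E-binding partner of FMRP, fell in SUM159 KD (-0.63) and rose in BT549 OE (1.31). LARP1, a binder of the caps of mRNAs with a pyrimidine start, fell in BT549 OE (-0.52). PPM1G, a phosphatase of 4E-BP1, fell in SUM159 KD (-0.52), and GIGYF2, a partner of EIF4E2, fell in MDA-MB-231 KD (-0.32). For PPM1G the MDA-MB-231 KD effect minus the SUM159 KD effect was 0.71, more than the size of its fall in SUM159.

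In the EV libraries 10 of these 31 genes were higher and 16 lower in MDA-MB-231 than in SUM159, 13 and 15 in BT549 than in MDA-MB-231, and 9 and 18 in BT549 than in SUM159. The shares of all genes were the ones given above for these comparisons: 36.4% and 39.2%, 39.1% and 40.4%, and 37.7% and 40.7%. EIF4EBP3, the remaining 4E-BP gene, had 206 and 154 normalized counts in BT549 EV and at most 2.02 in any MDA-MB-231 or SUM159 library. PAIP2B, an inhibitor of PABPC1, had 1203 and 1163 in MDA-MB-231 EV, 189 and 162 in SUM159 EV and 6.57 and 2.21 in BT549 EV. DDIT4 (-1.54) and MKNK2 (-1.10) were lower in MDA-MB-231 than in SUM159, and RPTOR (0.89) was higher.

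For each member the tested genes with the most similar profile were taken, by Pearson's r of log2 CPM, counts scaled to library size, over the 12 libraries. The libraries form 6 groups of 2, so these values mostly compare 6 group means and are given as a description. EIF4A1 was closest to ACADVL (r = 0.995) and RPA1 (r = 0.991), both of which lie on chromosome 17 as EIF4A1 does. Of the other members, only EIF4B had a neighbour on its own chromosome, RNF41 on chromosome 12. PDCD4 was closest to AREG and NSUN5, EIF4A2 to GADD45B and TMEM120B, EIF4B to GNL2 and RNF41, and EIF4E to BDKRB1 and CFB. EIF4EBP1 was closest to ENSA and WIZ, EIF4EBP2 to KDELR1 and ESYT2, EIF4G1 to RPL34 and TRPC4, EIF4G2 to B4GALT7 and ERGIC1, and EIF4G3 to SLC23A2 and TTC28. Among the members themselves EIF4EBP1 and EIF4G3 were most alike (r = 0.98), followed by EIF4A2 and EIF4B (r = 0.91), and EIF4A1 and EIF4G1 were most opposed (r = -0.86).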

How the data were processed

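Polysome-associated RNA of established cell lines was sequenced in 12 libraries, and groups were taken from the sample labels. Per the submitters' processing notes and the study's methods, the authors used Trimmomatic for trimming, HISAT2 for alignment to GRCh38 and SAMtools to drop duplicates, which can lower the counts of the most abundant mRNAs, followed by Partek, DESeq2 and RPKM. The values deposited are expected counts of Ensembl transcripts, not normalized (3.10% of values above 0 are whole). The counter, its annotation and its strand setting are not given in the sources used here. The labels name a poly(A) selection kit and the methods an rRNA depletion kit. In the 8 MDA-MB-231 and SUM159 columns deposited by the authors the unit is recorded as other, since 5.08% of rows hold a missing mark, taken as 0 (no member has one). No row is 0 in all 4 BT549 libraries, so mRNAs undetected in BT549 are not listed. Depth was 22954226 to 27434677 counts. A count of 0 allows up to 3 counts, for counting error only.

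Transcripts were matched to GENCODE 44 (79.6% of rows) without version numbers, summed per symbol and rounded. With edgeR 4.0.16 in R 4.3.3, genes kept by filterByExpr were scaled by TMM and tested by quasi-likelihood in a model of 6 group means (6 residual degrees of freedom, common dispersion 0.000835). Calls are at an adjusted p under 0.05 (Benjamini-Hochberg). SE is the absolute log2 fold change over the square root of F, and 95% intervals use 6 degrees of freedom. The test itself uses more, so the intervals are wider than its p-values imply. For PDCD4 in MDA-MB-231 KD the interval spans 0, while the unadjusted p of edgeR's test was 0.043. TPM divides each transcript by its length. Python 3.11.15 with pandas 2.3.3, numpy 2.4.6, Biopython 1.88 and matplotlib 3.10.9 did the rest. The alternatives were scaling by RLE or by library size only, DESeq2 1.42.0, other filters, a replicate block, own groups alone, the leading transcript, marked transcripts left out, read-through transcripts added to EIF4A1, a fold limit and leaving out each library. The fit was tested on simulated counts. The members and lists were chosen with earlier results of these data known. Named genes are all members, TRMT112, up to 4 called list genes per comparison and direction with the smallest adjusted p, a member's 2 most similar genes, and fixed cell type markers. Not all list genes that this rule gives are printed.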

Additional observations from a re-analysis of the deposited data

Results flagged for a closer look

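Results are given here where the KD effect differed between MDA-MB-231 and SUM159 by the edgeR test of the difference itself, on the log2 scale, MDA-MB-231 minus SUM159. Among the members these were PDCD4 (2.02), EIF4A1 (1.11), EIF4B (0.35), EIF4G1 (0.20), EIF4G2 (-0.17), EIF4A2 (-0.35) and EIF4EBP2 (-0.51). With the leading transcript alone EIF4G1 was at -0.018, not called, and EIF4G2 lost its call (edgeR adjusted p = 0.053). EIF4A1 and EIF4A2, each summed over its transcripts, changed in opposite directions in the 2 lines and moved opposite to each other within each. For the leading EIF4A2 transcript alone this did not hold: it was at 0.06 in MDA-MB-231, not called, and its difference between the lines (-0.37) was not called either (edgeR adjusted p = 0.11). Of the genes around the complex, DDIT4 (1.71), EIF4A3 (1.10), RPS6KA1 (0.80) and PPM1G (0.71) had differences above 0. Those of AKT1S1 (-0.50), MKNK2 (-0.51), RHEB (-0.53) and EIF4E2 (-0.59) were below 0. In all, 11 of the 31 genes around the complex had a difference above 0 and 6 below 0, against 27.7% and 23.2% of all genes. No group had 4 or more libraries, so no library could be tested as standing apart from its group.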

How the results depend on the processing

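Counts of members and of the 31 surrounding genes past the threshold stayed within 1.5 times under RLE size factors, library size only, DESeq2, both other filters, own groups alone, marked transcripts left out and each library left out. With a fold limit of 0.5 on the log2 scale added, 0 members were called in MDA-MB-231, 4 in SUM159, 5 in BT549 and 3 in the difference of the KD effects. The shares of all genes under this limit were 10.2%, 34.9% and 50.8% in the 3 lines, and none was taken for the difference. With the leading transcript alone, 4 were called in MDA-MB-231 and 4 in the difference, beside 1781 and 3974 of all 16200 genes. The main fit called 6240 and 8415 of 16538 genes there. Replicate numbers did not pair the libraries (correlation of deviations 0.02, -0.02 and 0.004), and with a replicate block 7, 10 and 8 members were called in MDA-MB-231, SUM159 and BT549 and 8 in the difference, where EIF4E (0.14) was added. Of all 16538 genes, 6164, 9815, 11569 and 8346 were called with the block.

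Values turned sign as follows. With the leading transcript alone, EIF4A2 was at 0.061 in MDA-MB-231 and -0.038 in BT549, EIF4G3 at -0.72 and EIF4B at 0.0019 in BT549, EIF4G1 at -0.018 and EIF4G3 at -0.60 in the difference, and EIF4G3 at 0.26 between BT549 and SUM159 EV. EIF4G3 was at 0.022 there with RLE size factors and with DESeq2, and EIF4A1 at -0.063 with library size only. With library size only the median of all genes was -0.34 between BT549 and MDA-MB-231 EV, and 38.4% in place of 49.1% of calls were higher. Without 1 library at a time, EIF4E in MDA-MB-231 ranged from -0.049 to 0.0024, and EIF4EBP1 in the difference from -0.061 to 0.025, with 0.0066 without MDA-MB-231 EV replicate 1 and 0.025 without SUM159 EV replicate 2. EIF4EBP1 between BT549 and SUM159 EV lost its call without SUM159 EV replicate 1 (-0.11), and EIF4E in the difference gained one without SUM159 KD replicate 2 (0.20) and without a filter on low counts (0.16).

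With leading transcripts only, the ratio of EIF4EBP1 to EIF4E moved to -0.21 in MDA-MB-231, EIF4EBP2 to EIF4E to 0.46 in MDA-MB-231 and 1.11 in SUM159, and EIF4A2 to EIF4A1 to -0.087, 1.38 and -1.21. PDCD4 to EIF4A1 moved to -1.91 in BT549, EIF4G2 to EIF4G1 to 0.66, 0.78 and 0.73, and EIF4G3 to EIF4G1 to -0.77, -0.17 and -0.84, the last a change of sign. The order by TPM with the length of the leading transcript kept 6 of 10 ranks in SUM159 KD and at least 8 in the other groups. The cause of these changes was not tested. Changes of a few percent rest on 2 libraries a group, and depth limits mostly PDCD4 in BT549.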
